A study of Mus musculus with 6 samples.

Results

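The collagens, the laminin chains and a set of stromal matrix genes were examined in whole testis of mice treated with JQ1, a small molecule that binds the bromodomains of the BET proteins and displaces them from acetylated chromatin. Members were taken by gene symbol: every collagen chain, every laminin chain, and Fn1, Sparc, Dcn, Lum, Bgn, Nid1, Nid2, Hspg2, Eln, Postn, Timp2, Timp3, Mmp2 and Pdgfra. The array carries 64 such genes on 141 probes. A gene counted as measured where at least 1 of its probes was detected in at least 2 of the 5 mice, which left 47 genes on 67 probes, of 11755 genes measured in all. All 5 animals were male C57/129 mice (C57BL6/J/129S5 hybrids in the methods of the study), treated from 6 to 12 weeks of age. The 3 JQ1 mice had received 50 mg/kg each day for 6 weeks and the 2 control mice had received vehicle, which was DMSO in a cyclodextrin solution. Control mouse 1 was hybridised to 2 arrays, counted as 1 sample. The sources do not say whether the mice were littermates, so that p-values measure the spread between these animals only.

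The extracellular matrix of the testis lies mainly around the seminiferous tubules and between them. A basement membrane built of laminin and type IV collagen networks, linked by nidogens and the proteoglycan perlecan, surrounds each tubule and is laid down by Sertoli cells and by the peritubular myoid cells outside it. Fibrillar collagens, small proteoglycans, fibronectin and elastic fibres fill the wall and the interstitium, where matrix metalloproteinases cut them and TIMPs inhibit those enzymes.

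JQ1 testes carried more signal for 4 of 6 laminin chains, for all 3 genes of metalloproteinase control and for Sparc, Dcn, Bgn and Pdgfra. None of the fibrillar collagens passed the test, and several of them read near the lowest detected signal. Of the 47 measured members, 17 rose with JQ1 (36.2%) and 6 fell (12.8%) at an adjusted p under 0.05, and 24 did not pass. Over all genes measured, 25% rose and 21.6% fell by the same test. With a change of at least 2-fold also required, 11 members rose (23.4%, against 8.43% of all genes) and 2 fell (4.3%, against 2.84%). The median log2 fold change over the 47 members was 0.35, and over all genes it was 0.00043. The groups did not overlap for 32 members (68.1%), close to the 65.9% found over all genes. The median member lay 0.18, 0.44 and 0.26 above the mean of the control mice in JQ1 mice 1, 2 and 3 on the log2 scale. The summed linear signal of the members was 12256 and 13484 in the control mice against 19178, 22768 and 23383 in the JQ1 mice. This sum is weighted towards bright members, among which Sparc, Dcn and Timp2 rose and Col16a1 and Col9a3 fell. In bulk tissue, a change in the number of cells of a type and a change in RNA per cell cannot be told apart. After quantile normalization the signals are relative within each array, and the study reported smaller testes after this treatment. The amount of matrix RNA per testis was not measured.

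**Figure D1:**
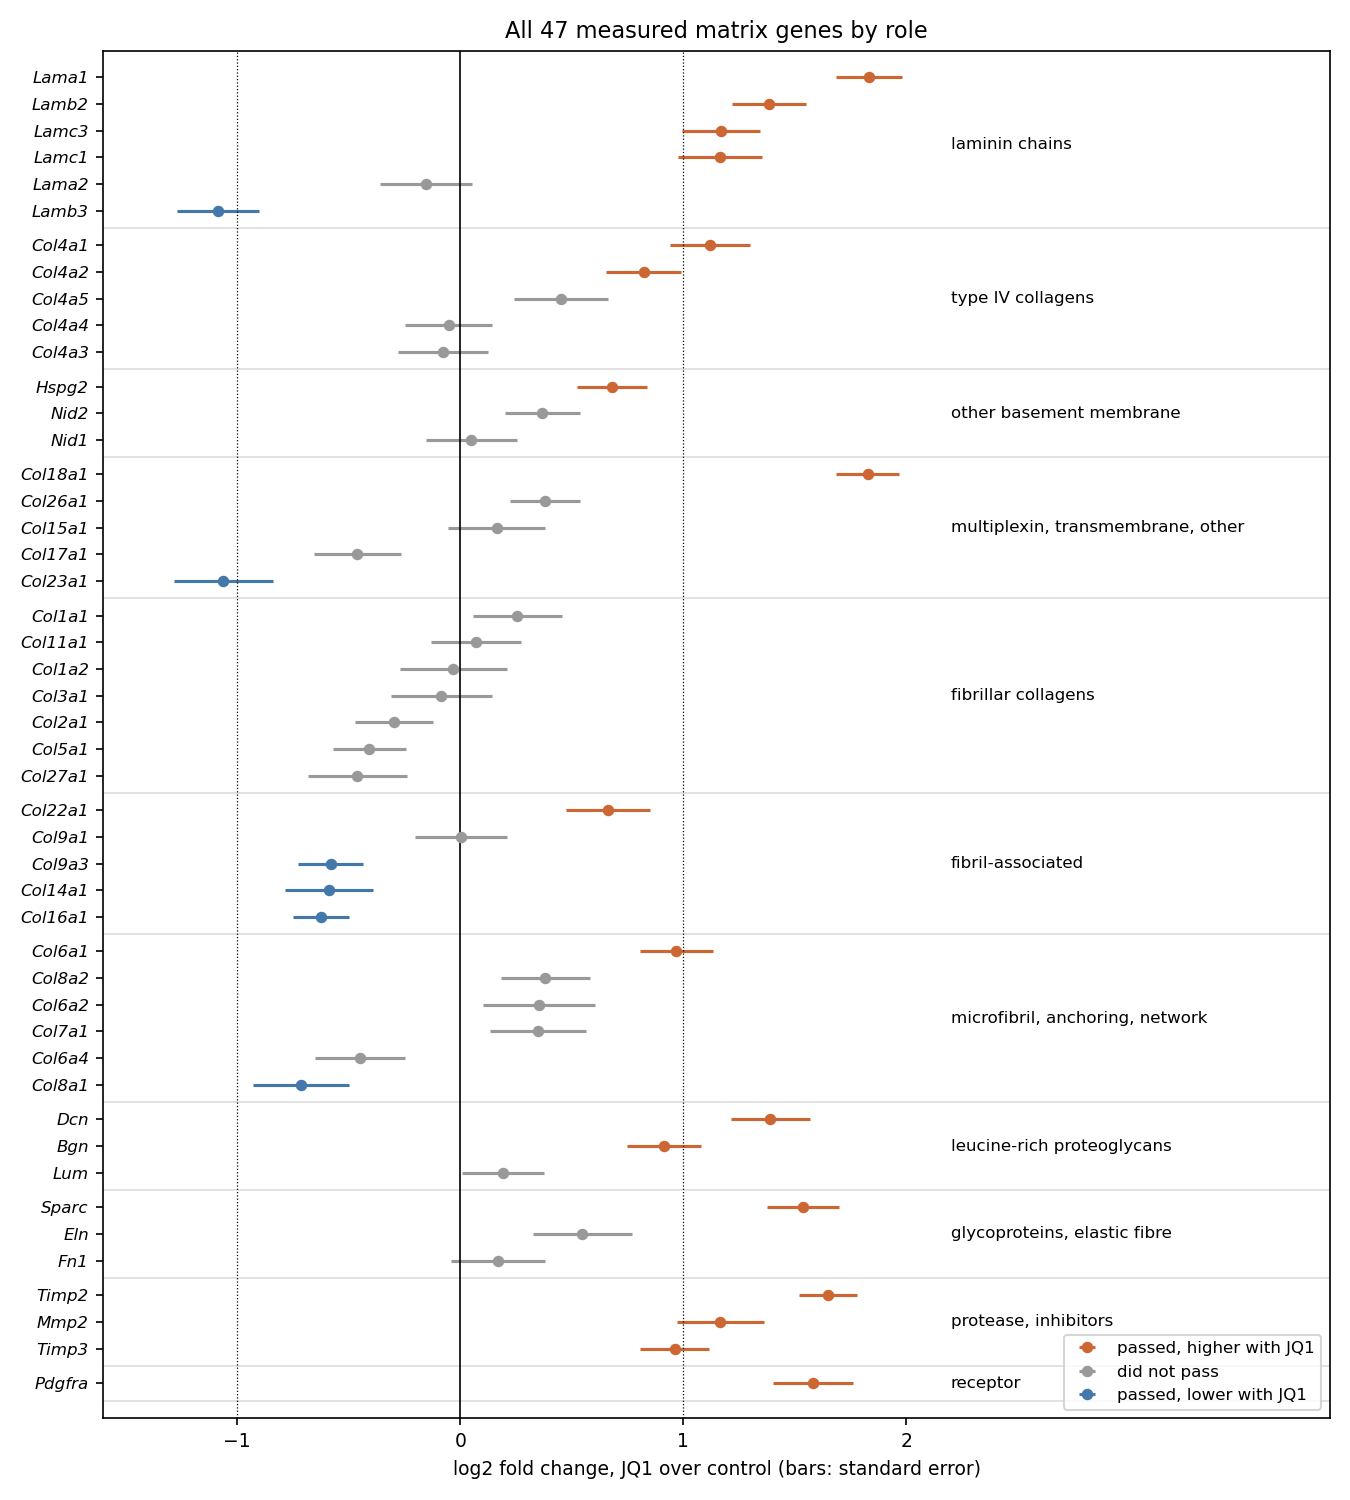
Log2 fold change, JQ1 over control, of the 47 measured matrix genes, each by its brightest probe and grouped by role; bars are the standard error of the fit over 3 JQ1 and 2 control mice, and dotted lines mark a 2-fold change. The laminin chains Lama1, Lamb2, Lamc3 and Lamc1 and all 3 genes of metalloproteinase control lie to the right, while none of the 7 fibrillar collagens passed. Several of the fibrillar collagens read near the lowest detected signal.

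The laminin chains held the most 2-fold changes of any role group. Laminins are trimers of an alpha, a beta and a gamma chain, and of the 6 chains measured 4 rose, 1 fell and 1 did not pass, with a median log2 fold change of 1.17. Lama1 encodes the alpha chain of the laminin of early embryonic basement membranes and lies on chromosome 17. Its log2 signal was 7.25 and 7.28 in the control mice and 9.15, 9.01 and 9.12 in the JQ1 mice. The mice of each group lay close together and far from the other group, a 3.56-fold rise (log2 1.83, SE 0.15, adjusted p = 8.60e-08, limma). Lamb2, a beta chain of mature basement membranes, read 6.79 and 7.12 in control mice and 8.33, 8.46 and 8.22 with JQ1, a rise of 2.61-fold (adjusted p = 4.26e-06). Lamc1, the gamma chain shared by most laminins, read 6.17 and 5.88 against 7.04, 7.09 and 7.44, a rise of 2.24-fold (adjusted p = 8.17e-05), and a dimmer probe of the gene gave a log2 fold change of 1.20.

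Lamc3 and Lamb3 moved in opposite directions. In rat testis the chains they encode have been described at the junction between Sertoli cells and elongating spermatids. Lamc3 read 6.65 and 6.86 in control mice and 7.77, 7.84 and 8.17 with JQ1, a rise of 2.25-fold (adjusted p = 3.93e-05). A dimmer Lamc3 probe was detected in every JQ1 mouse and in no control mouse, and was at least 2.32-fold higher. That probe was kept through the JQ1 mice alone, which favoured a higher reading, so its direction is no separate support. Lamb3 read 7.60 and 7.58 in control mice and 6.74, 6.53 and 6.24 with JQ1, so that all JQ1 mice lay below both controls. It fell by 1.09 on the log2 scale (SE 0.18, adjusted p = 1.28e-04), which is 2.12-fold. Without JQ1 mouse 3 the log2 fold change was -0.95, under the 2-fold line. Lama2, the alpha chain best known from muscle, read 6.25 and 6.54 against 5.89, 6.51 and 6.33, with the groups overlapping (adjusted p = 0.572). Lama4, Lama5 and Lamb1 were on the array but had no probe that passed the detection filter.

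**Figure D2:**
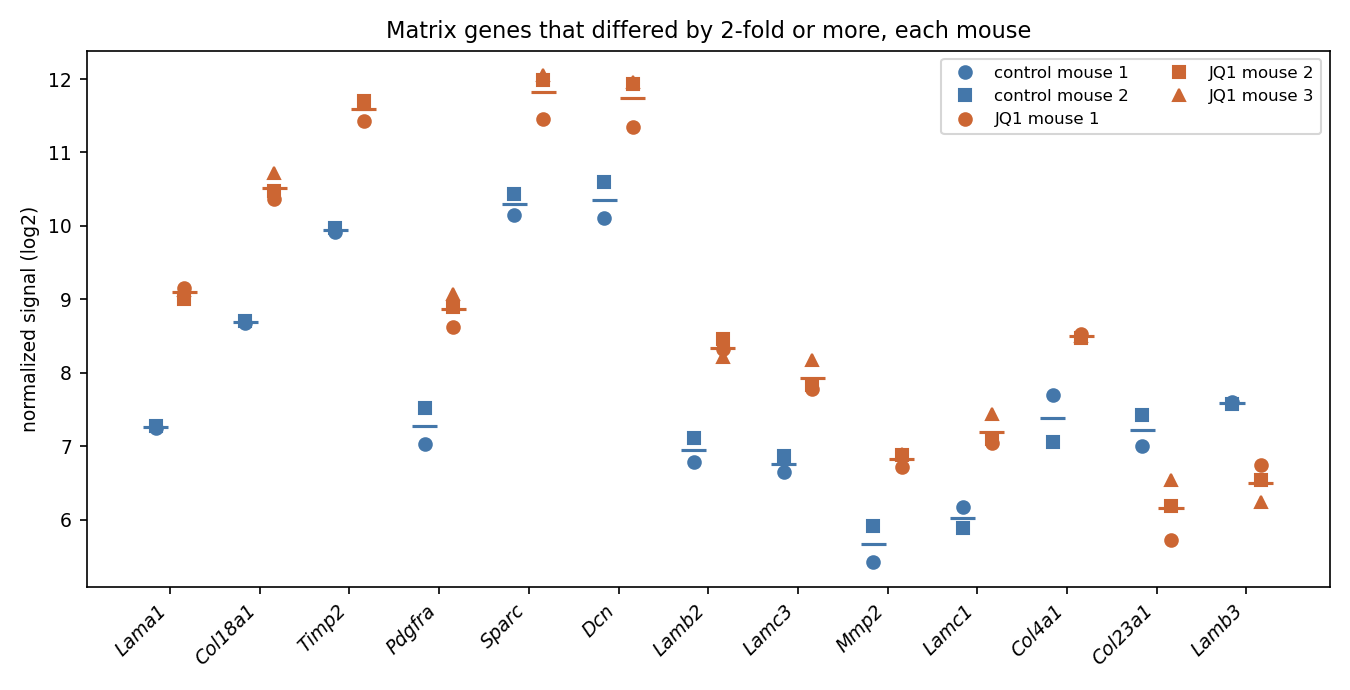
Normalized log2 signal in each mouse for the 13 matrix genes that changed by at least 2-fold; points are mice, short lines are group means, and signals of different genes are not comparable with each other. For the 11 genes on the left every JQ1 mouse lies above both control mice, and for Col23a1 and Lamb3 every JQ1 mouse lies below.

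Type IV collagen forms the second network of the basement membrane. Of its 5 chains measured, 2 rose, none fell and 3 did not pass, with a median log2 fold change of 0.45. The 2 that rose, Col4a1 and Col4a2, encode the chains that assemble together in the type IV collagen of nearly all basement membranes. Col4a1 read 7.70 and 7.06 in the control mice and 8.52, 8.47 and 8.50 in the JQ1 mice. The JQ1 mice agreed closely and the control mice did not, and the rise was 2.17-fold (log2 1.12, SE 0.18, adjusted p = 7.08e-05). Without control mouse 2 the log2 fold change was 0.80. Col4a2 read 7.18 and 7.00 against 7.73, 8.05 and 7.96, a rise of 1.77-fold (adjusted p = 6.58e-04). The chains of the more specialised networks, Col4a3 (log2 fold change -0.08, adjusted p = 0.788), Col4a4 (-0.05, adjusted p = 0.851) and Col4a5 (0.45, adjusted p = 0.0879), did not pass by their brightest probes.

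Col4a1 and Col4a2 are neighbours on opposite strands of chromosome 8. Their promoter windows, 250 bases before to 50 after the transcription start, are shown because these are the neighbouring members that rose together. In the RefSeq annotation of GRCm38.p6 the starts lie 21 bases apart, each just inside the other transcript, and the windows, chr8:11312777-11313076 on the minus strand for Col4a1 and chr8:11312555-11312854 on the plus strand for Col4a2, share 78 bases. Capitals mark matches to the CCAAT box (CCAAT) and the GC box (GGGCGG), each searched on both strands, so that ATTGG and CCGCCC are matches on the other strand.
Col4a1: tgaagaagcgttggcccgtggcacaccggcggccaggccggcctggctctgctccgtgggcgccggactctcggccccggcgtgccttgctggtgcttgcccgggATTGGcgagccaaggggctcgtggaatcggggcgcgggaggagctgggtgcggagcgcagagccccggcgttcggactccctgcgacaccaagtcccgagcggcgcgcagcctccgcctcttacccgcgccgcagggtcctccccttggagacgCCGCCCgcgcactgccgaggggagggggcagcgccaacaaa
Col4a2: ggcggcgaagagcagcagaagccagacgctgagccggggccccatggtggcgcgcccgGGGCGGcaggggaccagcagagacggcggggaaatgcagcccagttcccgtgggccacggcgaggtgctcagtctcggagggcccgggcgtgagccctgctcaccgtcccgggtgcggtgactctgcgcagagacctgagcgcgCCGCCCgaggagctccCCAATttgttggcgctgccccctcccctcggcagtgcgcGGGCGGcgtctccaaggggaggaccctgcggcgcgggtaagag

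Both windows were rich in G and C, at 74.0% and 73.7%, against a median of 52.7% over all 32851 promoter windows of the same length. Counting the start as base 0, Col4a1 held a CCAAT match at -145 to -141 and a GC box match at 9 to 14, both on the strand opposite to the printed sequence. Col4a2 held a CCAAT match at -32 to -28 and GC box matches at -192 to -187, -48 to -43 and 7 to 12, of which that at -48 to -43 lay on the opposite strand. The Col4a1 match at 9 to 14 and the Col4a2 match at 7 to 12 are the same bases of the genome. No matches overlapped within a window, and the TATA box (TATAAA) had no match in either. CCAAT occurs in 37.41% of all such windows, GGGCGG in 35.66% and TATAAA in 13.62%. Of the 47 measured members, 31 had a promoter in the table, with 35 windows between them. CCAAT was matched in 13 of these windows, GGGCGG in 22 and TATAAA in 2.

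The remaining basement membrane proteins gave smaller changes. Hspg2, which encodes perlecan, read 7.53 and 7.77 in control mice and 8.32, 8.38 and 8.31 with JQ1, a rise of 1.60-fold (adjusted p = 0.00166). A dimmer probe of Hspg2 did not pass, at 0.44 on the log2 scale (adjusted p = 0.0566). The nidogens, which bridge laminin and type IV collagen, did not pass. Nid2 read 7.01 and 6.84 against 7.20, 7.37 and 7.31 (adjusted p = 0.0835), without overlap between the groups. Nid1 read 6.90 and 6.75 against 6.58, 7.30 and 6.74, with overlap (adjusted p = 0.863).

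Col18a1 stood apart from the other multiplexin, transmembrane and unclassified collagens. It encodes a proteoglycan-like basement membrane collagen whose C-terminal fragment is endostatin, and it lies on chromosome 10. Its log2 signal was 8.67 and 8.71 in the control mice and 10.36, 10.48 and 10.72 in the JQ1 mice. The groups were far apart, and the rise was 3.55-fold (log2 1.83, SE 0.14, adjusted p = 5.56e-08). A second, dim Col18a1 probe rose less, by 0.64 on the log2 scale (adjusted p = 0.0179). Col23a1, a transmembrane collagen, went the other way, from 7.01 and 7.43 to 5.73, 6.19 and 6.54. It fell by 1.06 on the log2 scale (SE 0.22, adjusted p = 8.14e-04), with the JQ1 mice more spread than the controls, and by 0.85 without JQ1 mouse 1 or without control mouse 2. The rest of the group did not pass: Col26a1 read 7.83 and 7.75 against 8.32, 8.09 and 8.09 (adjusted p = 0.0579), the log2 fold change of Col15a1, the other multiplexin, was 0.16 (adjusted p = 0.568), and that of Col17a1, a hemidesmosome collagen, was -0.46 (adjusted p = 0.0636).

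None of the 7 fibrillar collagens measured passed in either direction, and their median log2 fold change was -0.08. Col1a1, Col1a2, Col3a1 and Col11a1 read near the lowest detected signal, which was 5.06 to 5.27 on the log2 scale in the 5 mice. There a fall could hardly show and the processing draws folds towards 1. For these genes, not passing does not show a lack of change. Col1a1, a chain of the main collagen of connective tissue, read 5.29 and 5.30 in control mice and 5.76, 5.38 and 5.52 with JQ1 (adjusted p = 0.311). Its partner Col1a2 read 5.11 and 6.02 against 5.73, 5.38 and 5.49, so that the control mice lay on both sides of all JQ1 mice (adjusted p = 0.927). Col3a1 was detected in 1 control mouse and 1 JQ1 mouse, with a log2 fold change of -0.08 (SE 0.23). Col5a1, which helps to set fibril diameter, read 9.35 and 9.95 against 9.13, 9.25 and 9.35, so that the highest JQ1 mouse lay just below control mouse 1 (log2 fold change -0.41, adjusted p = 0.0505). With control mouse 1 left out it was -0.70 (adjusted p = 0.00883). Col2a1, best known from cartilage, read 7.73 and 7.46 against 7.47, 7.31 and 7.11, with a small overlap (adjusted p = 0.176).

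The fibril-associated collagens, which decorate fibrils, were the only role group where more members passed as lower than as higher. Of 5 measured, 3 fell, 1 rose and 1 did not pass, none by 2-fold, and the median log2 fold change was -0.58. Col16a1 read 10.89 and 10.82 in control mice and 10.28, 10.21 and 10.20 with JQ1. The spread within each group was small beside the difference, and Col16a1 fell by 0.62 on the log2 scale (SE 0.13, adjusted p = 6.19e-04). Col9a3, a chain of cartilage collagen IX, read 10.82 and 10.66 against 10.21, 9.90 and 10.37, and fell by 0.58 (adjusted p = 0.0035). Without control mouse 1 its adjusted p was 0.0588. Col14a1 read 6.27 and 6.37 against 6.00, 5.49 and 5.69, and fell by 0.59 (adjusted p = 0.0226), a call that was lost without control mouse 1 (adjusted p = 0.0636), control mouse 2 (0.104), JQ1 mouse 2 (0.11) or JQ1 mouse 3 (0.0572). Col22a1, a collagen of tissue junctions, rose by 0.66 (adjusted p = 0.00799; 0.0569 without control mouse 1), and Col9a1 had a log2 fold change of 0.005 with overlapping groups.

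Among the microfibril, anchoring and network collagens, 1 of 6 measured rose, 1 fell and 4 did not pass. Col6a1, a chain of the beaded microfibrils around cells, read 7.23 and 7.48 in control mice and 8.17, 8.50 and 8.30 with JQ1. The groups were well separated and the rise was 1.96-fold (adjusted p = 1.26e-04), while its second probe rose by 1.14 on the log2 scale, past the 2-fold line. Col6a2, its partner chain, was dim and read 4.78 and 5.27 against 4.83, 5.60 and 5.70, with overlap (adjusted p = 0.263). Col8a1, a short-chain network collagen, fell by 0.72 (adjusted p = 0.0113). Without control mouse 1 its log2 fold change was -0.44 (adjusted p = 0.207), and without JQ1 mouse 2 it was -0.63 (adjusted p = 0.0525). The change of Col7a1, the anchoring fibril collagen, was 0.35 on the log2 scale (adjusted p = 0.196). Col6a4 did not pass (adjusted p = 0.0768). It was detected in the control mice only, with a mean there 1.24-fold above the lowest detected signal of the JQ1 mice. Col8a2 was detected in 2 JQ1 mice and in no control mouse, too dim for a fold.

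Of the small leucine-rich proteoglycans, which bind collagen fibrils and growth factors, 2 rose and 1 did not pass. Dcn, encoding decorin, read 10.11 and 10.60 in the control mice and 11.34, 11.94 and 11.96 in the JQ1 mice. JQ1 mouse 1 lay nearest the controls but still above both, and the rise was 2.62-fold (log2 1.39, SE 0.18, adjusted p = 6.98e-06). A second Dcn probe rose by 1.38, and the last, detected in no control mouse, was at least 1.15-fold higher. The last was kept through the JQ1 mice alone, which favoured a higher reading, so its direction is no separate support. Bgn, encoding biglycan, read 9.07 and 9.71 against 10.29, 10.45 and 10.19, a rise of 1.89-fold (adjusted p = 2.32e-04). Lum, encoding lumican, read 6.40 and 6.79 against 6.81, 6.89 and 6.67, with overlap (adjusted p = 0.412).

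Sparc was 1 of 3 glycoprotein and elastic fibre genes and the only 1 of them to pass. SPARC, or osteonectin, is a secreted collagen-binding protein that Sertoli and Leydig cells are known to make. It read 10.15 and 10.44 in the control mice and 11.45, 11.98 and 12.05 in the JQ1 mice. The rise was 2.90-fold (log2 1.54, SE 0.16, adjusted p = 9.97e-07), and its other 2 probes rose by 1.42 and 1.23. Eln, encoding elastin, did not pass (adjusted p = 0.0537). It was detected in 2 JQ1 mice and in no control mouse, with a JQ1 mean 1.11-fold above the lowest detected signal of the control mice. Fn1, encoding fibronectin, was likewise detected in 2 JQ1 mice only, at 5.16, 5.05 and 5.24 against 4.74 and 5.22, too dim for a fold.

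All 3 measured genes of metalloproteinase control rose, with a median log2 fold change of 1.17. Timp2, which inhibits metalloproteinases and also takes part in the activation of pro-MMP2, read 9.92 and 9.98 in the control mice and 11.44, 11.70 and 11.65 in the JQ1 mice. It rose 3.14-fold (log2 1.65, SE 0.13, adjusted p = 6.15e-08). Mmp2, the gelatinase that cuts type IV and denatured collagens, read 5.42 and 5.91 against 6.71, 6.89 and 6.90, a rise of 2.25-fold (adjusted p = 1.10e-04), with a log2 fold change of 0.92 without control mouse 1. Timp3, the matrix-bound inhibitor, read 8.29 and 8.22 against 8.98, 9.27 and 9.40, a rise of 1.95-fold (adjusted p = 7.87e-05). A dim Timp3 probe, detected in no control mouse, did not pass (adjusted p = 0.12).

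Pdgfra, the receptor for PDGF-A and PDGF-C on mesenchymal cells, read 7.04 and 7.53 in the control mice and 8.62, 8.90 and 9.07 in the JQ1 mice. The rise was 2.99-fold (log2 1.58, SE 0.18, adjusted p = 2.22e-06). A second Pdgfra probe, detected in 1 control mouse and 2 JQ1 mice, gave -0.22 on the log2 scale (adjusted p = 0.403), so that the probes of this gene disagreed. The second probe read 5.28 and 5.15 against 4.72, 5.10 and 5.16, near the lowest detected signal. There the processing draws folds towards 1, so its not passing does not show a lack of change.

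Where a gene had several kept probes, they mostly pointed the same way. There were 16 such members with 20 dimmer probes, of which 18 had the sign of the brightest probe of their gene, the exceptions being in Pdgfra and Col4a4. Among the 11 dimmer probes of members that had passed, 8 passed in the same direction, and the other 3 were the dim probes of Hspg2, Timp3 and Pdgfra. The 20 include dimmer probes of Lamc3, Dcn, Timp3, Col4a4 and Col4a5 that were detected in no control mouse. Such probes were kept through the JQ1 mice alone, which favoured a higher reading with JQ1, so their direction is no separate support. Col4a4 stood at -0.05 by its brightest probe and rose by 0.93 (adjusted p = 0.00618) by a probe detected in every JQ1 mouse and in no control mouse, at least 1.57-fold higher. A Col4a5 probe detected in the same way passed too (log2 fold change 0.81, adjusted p = 0.00307, at least 1.32-fold higher). For Col17a1 the second probe passed as lower (-0.61, adjusted p = 0.0393) and the other 2 probes did not.

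**Figure D3:**
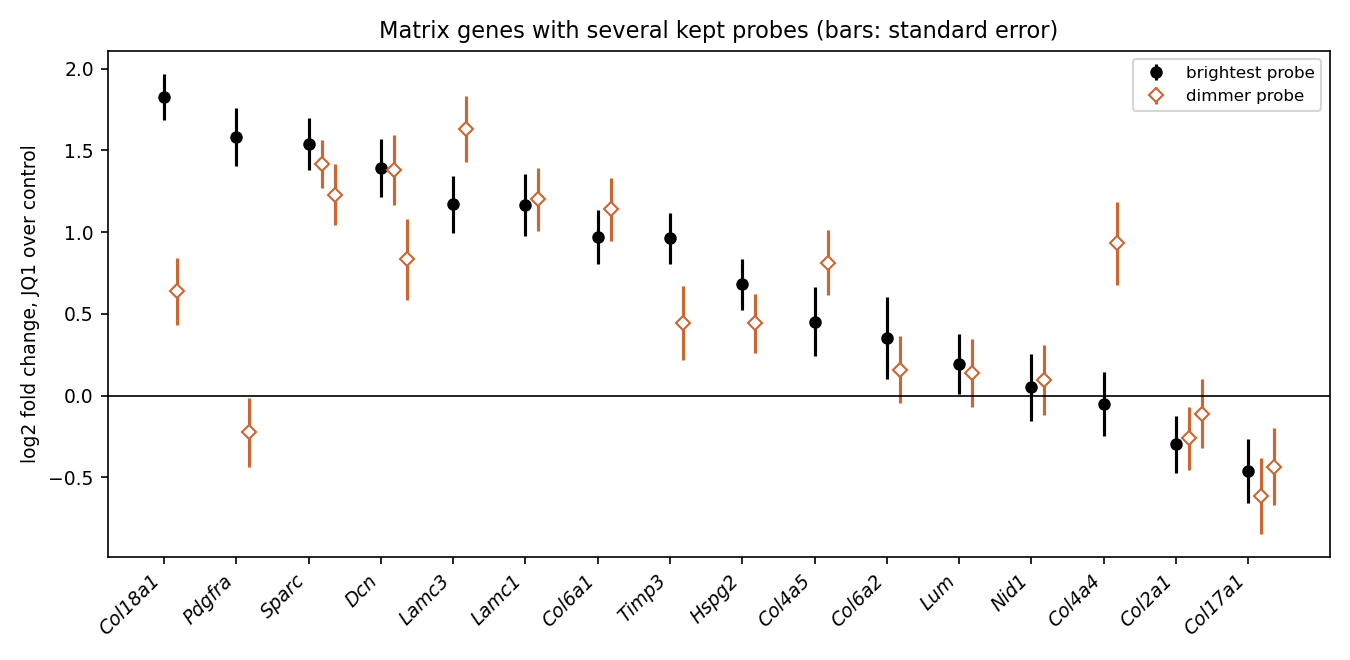
Log2 fold change, JQ1 over control, with its standard error, for each kept probe of the 16 matrix genes with several kept probes; filled circles are the brightest probe of each gene and open diamonds the dimmer ones. The probes of Sparc, Lamc1 and Col6a1 lie together. For Pdgfra, Col18a1, Col4a4, Timp3, Dcn and Lamc3 a dimmer probe differs from the brightest by more than their errors.

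Individual mice differed within each group. Control mouse 2 read higher than control mouse 1 for 13 of the 17 members that rose, and JQ1 mouse 1 was the lowest of the 3 JQ1 mice for 11 of them. The median absolute difference over the members was 0.10 between the 2 arrays of control mouse 1 and 0.29 between the 2 control mice on the log2 scale. The 24 members that did not pass had log2 fold changes between -0.46 and 0.55. Of the 47 members 36 were detected in all 5 mice.

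The pathway genes outside the member rule are given by counts, to be set beside the 25% of all genes that rose, the 21.6% that fell and the 8.43% that rose by 2-fold. Whether any of these lists differs from all genes was not tested. Of 19 measured genes that build and cross-link collagen 10 rose, 3 of them by 2-fold, 2 fell and 7 did not pass, with a median log2 fold change of 0.54. Tgm2, the tissue transglutaminase that cross-links matrix proteins, rose by 2.05 on the log2 scale (adjusted p = 5.34e-08). Bmp1, a procollagen C-proteinase, rose by 1.17 (adjusted p = 4.70e-05), and Pcolce, which enhances that cleavage, by 1.00 (adjusted p = 6.75e-05). Loxl1, a lysyl oxidase of elastic fibres, fell by 0.90 (adjusted p = 7.77e-05), and Mia3, which loads procollagen for export, fell by 0.82 (adjusted p = 0.00335).

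Of 13 matrix receptors measured, 5 rose, 1 fell and 7 did not pass, with a median of 0.45. Itga9, an integrin alpha chain, rose by 1.91 (adjusted p = 2.65e-07), the collagen receptor Ddr1 by 1.48 (adjusted p = 8.68e-07), Itgb5 by 1.33 (adjusted p = 2.49e-05) and Dag1, the precursor of the laminin receptor dystroglycan, by 0.98 (adjusted p = 1.83e-04). Itga1, a chain of a collagen-binding integrin, fell by 0.63 (adjusted p = 0.00567). Of 9 proteases and inhibitors beyond Mmp2, Timp2 and Timp3, 4 rose, none fell and 5 did not pass, with a median of 0.44. Mmp11, 1 of the 4, was detected in every JQ1 mouse and in no control mouse. It was kept through the JQ1 mice alone, which favoured a higher reading, so its direction is no separate support. Timp1 read 5.85 and 6.84 in the control mice and 9.54, 9.63 and 9.87 in the JQ1 mice, a log2 rise of 3.33 (adjusted p = 1.02e-08) with the controls a wide distance apart. Mmp14, the membrane protease that activates MMP2, rose by 1.26 (adjusted p = 3.69e-06).

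Among TGF-beta signalling and other matrix-inducing genes, 9 of 11 measured rose, 1 fell and 1 did not pass, with a median of 0.68. The signal transducer Smad3 rose by 1.99 (adjusted p = 3.62e-08), the receptor Tgfbr2 by 1.13 (adjusted p = 4.02e-05), the ligand Tgfb3 by 1.09 (adjusted p = 6.83e-05) and the co-receptor Tgfbr3 by 0.86 (adjusted p = 2.78e-04). Of the ligands of Pdgfra, Pdgfa fell by 0.76 (adjusted p = 5.95e-04), and Pdgfc, detected in every JQ1 mouse and in no control mouse, was at least 1.17-fold higher (adjusted p = 0.0315). Pdgfc, 1 of the 9, was kept through the JQ1 mice alone, which favoured a higher reading, so its direction is no separate support.

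Markers of several somatic cell types of the testis moved in the same direction as the members that rose, and their part in these results was not tested. The marker counts here and below are to be set beside the 25% of all genes that rose and the 21.6% that fell. Of 8 Sertoli cell markers measured 7 rose, with a median log2 fold change of 1.33, and their summed linear signal went from 7866 to 8208 in control mice to 19272 to 22994 with JQ1. Sox9 rose by 1.70 and Cldn11 by 1.47, while Gata4 and Amh were detected on 0 arrays. All 5 Leydig cell markers measured rose (median 1.14), among them Insl3 by 1.14, with sums of 9264 to 10871 against 19376 to 26905, and Hsd3b1 and Hsd3b6 were detected on 0 arrays. Of 5 peritubular myoid and smooth muscle markers 3 rose and 1 fell (median 0.69), with sums of 9714 to 11189 against 13925 to 15488. There Mylk rose by 1.21 and Acta2 by 1.16, Actg2 fell by 0.43, and Tagln and Cnn1 were detected on 0 arrays. Of 6 macrophage markers 5 rose (median 0.82), with sums of 823 to 1013 against 1339 to 1897.

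The endothelial and fibroblast markers moved less. None of 8 endothelial markers passed (median 0.19), and their sums were 588 to 609 against 639 to 688. Of 3 fibroblast markers measured only Tcf21 rose, by 0.73, with sums of 184 to 280 against 253 to 333, and Pdgfrb and Meg3 were detected on 0 arrays. Of 6 epididymal markers on the array Spink8 alone was measured. It was detected in every JQ1 mouse and in no control mouse, at least 3.30-fold higher, while Lcn5, Lcn8, Rnase10, Adam7 and Defb1 were detected on 0 arrays. Spink8 was kept through the JQ1 mice alone, which favoured a higher reading. Among germ cells, 5 of 8 pachytene spermatocyte markers fell (median -0.35; sums 96680 to 106630 against 79839 to 85860), as did 3 of 8 round spermatid markers (median -0.23; 23559 to 24309 against 19221 to 20777). None of 7 elongating spermatid markers passed (median -0.04; 107460 to 108410 against 98358 to 109830). All of them but Tnp2 had control means between 13.51 and 14.66 on the log2 scale, near the top of the signal range. Tnp2 had means of 10.27 in the control mice and 10.25 in the JQ1 mice (log2 fold change -0.02, adjusted p = 0.912, limma). The pachytene marker Ldhc, brighter than all of these, read 15.145 and 15.023 in the control mice and 14.979 in every JQ1 mouse. Quantile normalization gives probes of equal rank the same value, so these equal readings do not show a ceiling of the signal. Whether changes are hidden at such high signals was not tested. For these bright markers, not passing does not show a lack of change, and the sums are weighted towards them.

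**Figure D4:**
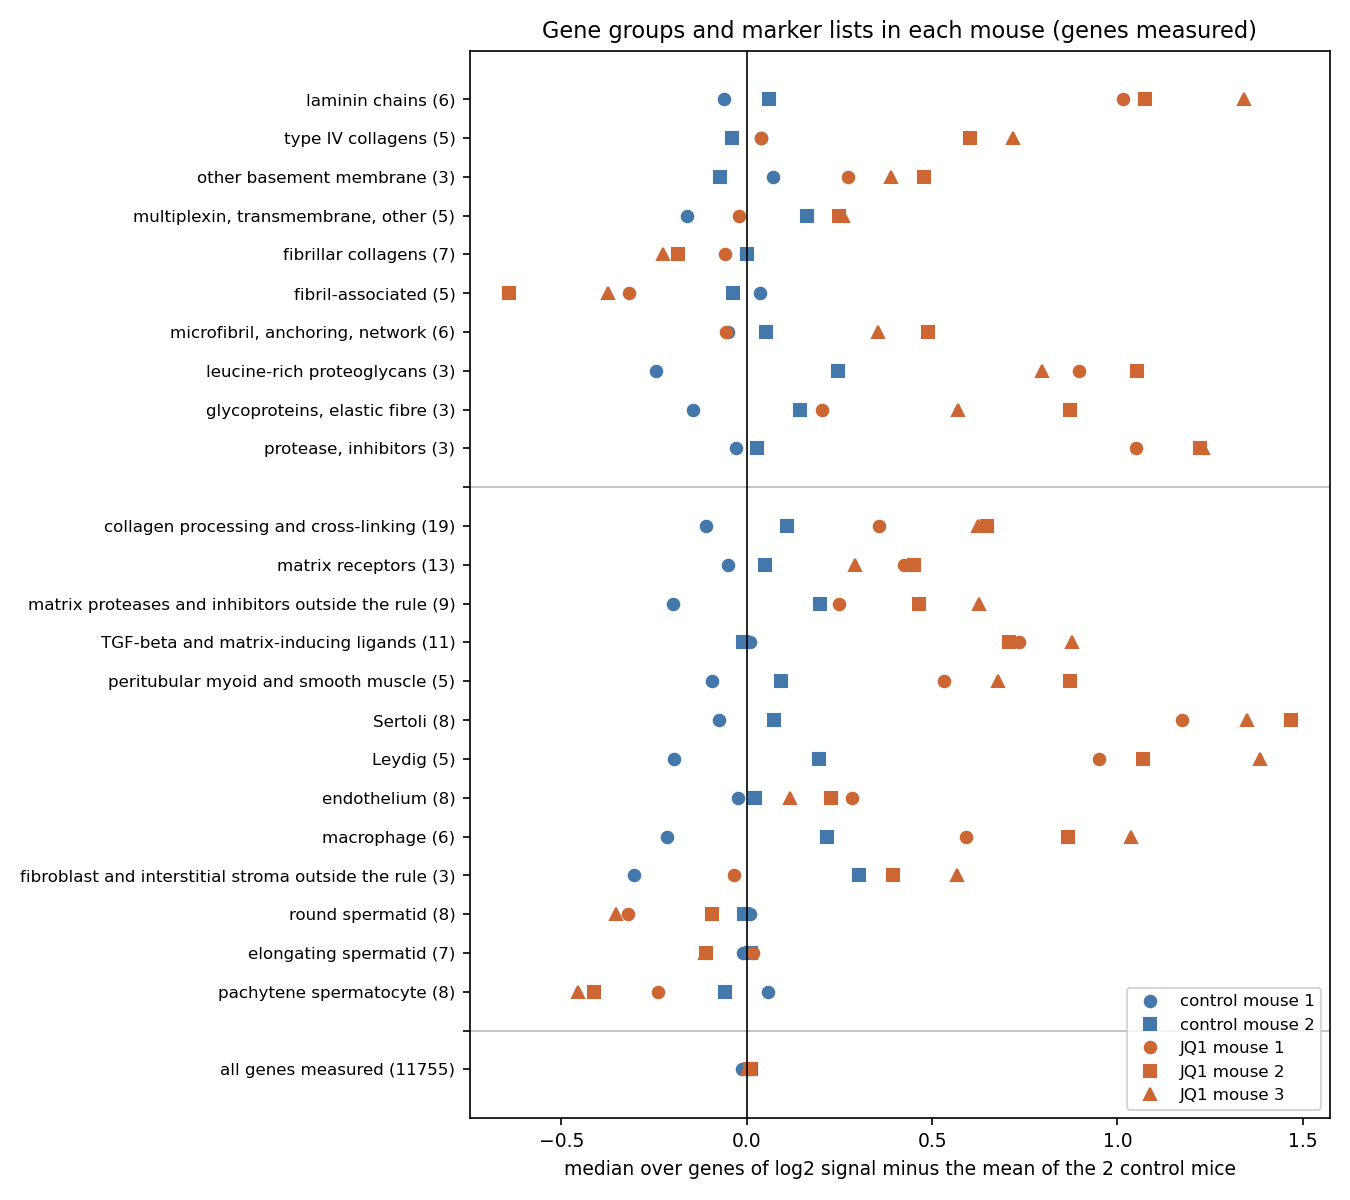
For each role group of the matrix genes (top), each matrix pathway and cell type list (middle) and all genes measured (bottom), the median over genes of log2 signal minus the mean of the 2 control mice, with 1 point per mouse and the number of genes in brackets. The laminin chains lie at 1.02, 1.07 and 1.34 in the JQ1 mice and the Sertoli cell markers at 1.17, 1.47 and 1.35. The Leydig cell markers lie at 0.95, 1.07 and 1.38, and the peritubular myoid and smooth muscle markers at 0.53, 0.87 and 0.68. The fibrillar collagens lie at -0.06, -0.19 and -0.23, and several of them read near the lowest detected signal.

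The 17 members on the array without a kept probe were Col10a1, Col11a2, Col13a1, Col19a1, Col24a1, Col25a1, Col28a1, Col4a6, Col5a2, Col5a3, Col6a5, Col6a6, Col9a2, Lama4, Lama5, Lamb1 and Postn. The arrays themselves had median raw signals between 101.8 and 142.2 and between 17799 and 20326 detected probes, of which 50 to 64 belonged to members, with the most in JQ1 mice 2 and 3.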

How the data were processed

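Total RNA of whole testis was hybridised to 6 Illumina bead arrays, standing for 5 mice. For every probe the authors deposited the raw intensity, its detection p-value and a normalized intensity with background subtracted, the last used here as an alternative only. The sources name no genome build.

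In R 4.3.3 with limma 3.58.1, raw intensities were corrected by normexp (offset 16, which draws the folds of dim probes towards 1), quantile normalized and log2 transformed, with the technical pair averaged. A probe was kept if at least 2 of the 5 mice had a detection p under 0.05, control mouse 1 counting as detected if either array was. Linear models with an intensity trend were fitted, and p-values were Benjamini-Hochberg adjusted over the 20901 kept probes (of 45281). Genes passed at an adjusted p under 0.05 and stand by their brightest kept probe. The few arrays limit the precision, and an exact permutation test of 2 against 3 mice could not go below 0.1. "At least" folds set a group detected on no array at the lowest detected signal or its own, whichever was higher. They carry no error for the spread between mice.

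Probe symbols come from the platform annotation: 34885 probes had 1 symbol, 18 several and 10378 none. Fbn1, Col6a3, Col12a1, Col20a1, Lama3 and Col4a3bp carry no probe there and are not analysed here. Named genes are all 2-fold members, the brightest of each role group, members whose probes disagree and some genes of the lists. The named list genes are not always those with the largest changes. Other members were named after their values were seen. The members and lists were chosen with earlier results of these data known.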

Additional observations from a re-analysis of the deposited data

How the results depend on the processing

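Over 16 alternative settings, 19 of the 23 members that passed did so under every setting that measured them; the exceptions were Col14a1, Col8a1, Col9a3 and Col22a1. Lama1, Col18a1, Timp2, Sparc and Dcn stayed past 2-fold throughout. Without background correction 6 members were 2-fold higher and 0 lower, and the median log2 fold change was 0.13. Lamb2 (0.96), Lamc1 (0.62), Lamc3 (0.76), Mmp2 (0.54), Col4a1 (0.82), Lamb3 (-0.65) and Col23a1 (-0.57) were then under 2-fold. With the authors' normalized values floored at 1 the median was 0.49. Averaging the probes of a gene put Pdgfra at 0.68. The control and JQ1 mice share only replicate numbers (correlation of differences 0.10); with the replicate block 18 members rose and 7 fell, 11 and 1 of them by 2-fold, with Lamb3 at -0.95. Leaving out 1 mouse at a time gave 16 to 20 members higher, 4 to 7 lower, 11 to 13 and 1 to 2 by 2-fold, and a median of 0.25 to 0.39. A lone control mouse was then assumed to vary as the JQ1 mice do.

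Of 739 single-gene values under the alternatives 21 changed sign, in 10 members that did not pass, and none of the 21 passed. Cyclic loess gave Col9a1 -0.016. The authors' values gave Col1a2 0.074 and Col3a1 0.49. The first array of control mouse 1 alone gave Col9a1 -0.042, Col1a2 0.032, Col4a4 0.17 and Lama2 0.0077, and the mean of probes gave Col4a4 0.44. Leaving out 1 mouse at a time gave ranges that cross 0 for Col15a1 -0.16 to 0.48, Fn1 -0.072 to 0.41, Col9a1 -0.19 to 0.20, Col1a2 -0.49 to 0.43, Col3a1 -0.44 to 0.27, Nid1 -0.16 to 0.20, Col4a3 -0.19 to 0.072, Col4a4 -0.17 to 0.062, Lama2 -0.30 to 0.023 and Col11a1 -0.029 to 0.13. The cause was not tested. In the other direction, 9 members passed under at least 1 alternative and not in the reported fit: Col5a1, Col26a1, Nid2, Eln, Col4a5, Col17a1, Col6a2, Col6a4 and Col27a1. Slide as a block was not run, as the sources used here give no slide.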
